A study of Mus musculus with 38 samples.

Results

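Foxa1, Foxa2 and Foxa3 are the 3 genes of the FoxA family of forkhead transcription factors, and they were picked by their Ensembl identifiers as 3 of the 55406 gene identifiers that all the count tables share. Their transcripts were followed through 38 bulk RNA sequencing libraries of organoids, small balls of tumour cells cultured in matrix, that were derived from lung adenocarcinomas of mice. A line stands for 1 tumour, and the mice were of mixed 129/B6 strain. All lines carried KrasFSF-G12D and p53frt, alleles that the FLP recombinase activates or removes, and Rosa-FSF-CreERT2, a Cre recombinase that 4-hydroxytamoxifen (4-OHT) switches on. They also carried floxed alleles, which Cre excises: Foxa1flox together with Foxa2flox in lines 1027B, 1027D and 1292B (double-floxed), Foxa1flox alone in 1552A, 1552B and 1552C, and Foxa2flox alone in 1267B and 1526C. The names 1552A, 1552B and 1552C share a number, and so do 1027B and 1027D. Whether lines that share a number came from the same mouse is not given here, so lines may not stand for separate mice. Cultures received 2 uM 4-OHT or its ethanol vehicle for 72 hours. There were 5 vehicle and 5 4-OHT libraries of double-floxed organoids, 6 and 6 of Foxa1-floxed and 4 and 4 of Foxa2-floxed organoids. A further 8 libraries came from line 1027B with the hairpin shScramble or shNKX2-1, 2 for each hairpin and treatment. Library titles carry a number: 17699 or 17992 in double-floxed lines and 1267B, 19659 in Foxa1-floxed lines and 1526C, and 19063 with hairpins.

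The comparisons answer how much of a floxed gene's transcript was left after 4-OHT, and whether a paralog rose or fell when another was lost. No line without a floxed allele was analysed here, so effects of 4-OHT or of Cre itself cannot be told apart from those of excision. The labels do not say whether the alleles were homozygous, where their loxP sites lie or when the RNA was collected. Counts cover whole genes, so reads from any exon that excision leaves behind are counted too. In bulk RNA, fewer cells that keep a transcript and less transcript per cell cannot be told apart.

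FoxA proteins are pioneer factors: they bind their sites in closed chromatin through a winged-helix forkhead domain and open it for other factors. Foxa1 and Foxa2 act early in the endoderm and overlap in function in lung and liver, where they work beside other lineage factors such as Nkx2-1. Foxa3 is best known from liver and gut, and is little expressed in normal lung alveoli.

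The forkhead domain is the most alike stretch of the paralogs, and the longest run that Foxa3 shares with its paralogs is shown. In the annotated transcripts (GENCODE vM21, GRCm38) the Foxa3 coding sequence shared at most 20 bases with that of Foxa1 or Foxa2, from its base 442 counted from the first base of the start codon. Within the coding sequence, a read longer than this run holds letters that differ between Foxa3 and its paralogs. No letter differs within the run, so it is in lower case.
Foxa3 with Foxa1 and with Foxa2: tggatcatggacctcttccc
Foxa1 (ENSMUSG00000035451) lies at chr12:57540628-57546916, Foxa2 (ENSMUSG00000037025) at chr2:148042877-148046969 and Foxa3 (ENSMUSG00000040891) at chr7:19013284-19023538, all on the minus strand of GRCm38. No other annotated gene overlaps any of them.

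Because the question is whether 1 paralog depends on another, the bases before the RefSeq starts are shown with a core FoxA motif, TGTTTAC on either strand, and a TATA box core, TATAAA on either strand, in capitals. The sequences are RefSeq's (GRCm38.p6), written 5′ to 3′ along the gene on the minus strand, and for Foxa2 the outermost of 3 RefSeq starts is given. They run over chr12:57546122-57546361 for Foxa1, chr2:148046970-148047219 for Foxa2 and chr7:19023540-19023789 for Foxa3. The Foxa1 window lies within the gene span given above, in the intron of a noncoding GENCODE transcript that starts further out. The 10 bases next to the RefSeq start of Foxa1, which belong to an exon in GENCODE, are not printed.
Foxa1: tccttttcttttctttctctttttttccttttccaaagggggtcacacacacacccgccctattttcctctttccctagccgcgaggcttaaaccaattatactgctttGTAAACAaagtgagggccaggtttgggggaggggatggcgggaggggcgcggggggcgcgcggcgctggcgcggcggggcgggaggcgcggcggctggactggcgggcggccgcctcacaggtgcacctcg
Foxa2: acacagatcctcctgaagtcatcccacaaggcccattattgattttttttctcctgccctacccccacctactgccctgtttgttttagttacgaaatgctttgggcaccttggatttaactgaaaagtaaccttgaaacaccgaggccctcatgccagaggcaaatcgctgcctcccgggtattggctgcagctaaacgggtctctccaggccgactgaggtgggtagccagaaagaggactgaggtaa
Foxa3: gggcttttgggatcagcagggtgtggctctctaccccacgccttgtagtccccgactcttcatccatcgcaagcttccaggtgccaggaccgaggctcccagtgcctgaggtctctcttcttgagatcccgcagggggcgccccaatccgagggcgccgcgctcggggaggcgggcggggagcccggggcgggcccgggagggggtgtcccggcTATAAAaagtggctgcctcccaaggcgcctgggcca
The Foxa1 window held 1 match to TGTTTAC, on the opposite strand, where its complement GTAAACA starts 141 bases before the RefSeq start. Of all 32851 promoter windows of 300 bases in the same table, 3.65% held this motif on either strand. Neither the Foxa3 window nor the windows at the 3 Foxa2 starts held it. The Foxa3 window had TATAAA 36 bases before its start, and the window at the innermost Foxa2 start had it 208 bases before, on the opposite strand. This motif was found in 13.6% of all windows, and the 2 motifs did not overlap in any of these windows. A match is a description of letters and was not tested as a binding site. Only these exact letters were searched, so a window without a match may still hold a variant of the motif.

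Library totals, in M counts (M for mega), were 13.6 to 16.3 with hairpins, 18.3 to 32.0 for double-floxed and 18.5 to 33.2 for single-floxed organoids. CPM below means counts per M counts after scaling by TMM factors over all 38 libraries. The mitochondrial share of counts was 11.7% in the library labelled shNKX2-1, 4-OHT, replicate 2, and 1.09 to 4.30% in the other 37. Of the 8 markers of tumour epithelium all were detected, with a summed level of 5291 CPM or more in every library. Fibroblast markers (6 of 7 detected) summed to 0.0531 to 5.13 CPM, endothelial markers (6 of 6) to 0.377 to 9.16 CPM and leukocyte markers (7 of 7) to 4.57 to 61.2 CPM. The repeat libraries of a line share a tumour, and the labels do not say whether they came from separate cultures, so p-values over libraries may measure technical spread.

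Under vehicle, Foxa2 was the most abundant paralog per length of transcript. Divided by exon length, Foxa2 stood highest in 17 of 19 vehicle libraries and Foxa1 in the other 2. Both exceptions were narrow: in line 1292B Foxa1 took 46.6% and Foxa2 45.2% of the summed FoxA level per length, and in line 1267B replicate 1 the shares were 48.8% and 43.8%. Foxa3 was the lowest of the 3 in 15 of 19 vehicle libraries and exceeded Foxa1 in the other 4, all of them from double-floxed lines. These orders rest on the exon lengths, 3327 bases for Foxa1 and 2370 for Foxa2. In CPM without that division, Foxa1 exceeded Foxa2 in every vehicle library of 1292B, 1267B and 1552B. Foxa2 exceeded Foxa1 in those of the other lines.

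In CPM per kb of exon, vehicle levels of Foxa2 were 49.0 ± 20.3 (SD, n = 5) in double-floxed, 57.5 ± 21.3 (n = 6) in Foxa1-floxed and 41.4 ± 9.74 (n = 4) in Foxa2-floxed organoids. Those of Foxa1 were 14.7 ± 8.91, 18.4 ± 5.21 and 29.8 ± 7.04 in the same order, and those of Foxa3 were 12.3 ± 5.33, 3.54 ± 4.09 and 7.74 ± 3.53. Foxa1 and Foxa3 in double-floxed organoids are neighbours in this order that overlapped in their spread. So are Foxa2 and Foxa1 in Foxa2-floxed organoids. The spread between lines was large for each gene.

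A floxed allele that lowered its own gene before any Cre activity would show as a lower vehicle level, so line means under vehicle were compared by exact permutation. Foxa1 was 0.87 lower on the log2 scale in the 6 lines with floxed Foxa1 (34.5 to 90.3 CPM) than in the 2 without (82.8 and 115.6 CPM): the difference was -0.87 with an exact two-sided p of 0.214. Foxa2 differed by -0.37 between the 5 lines with and the 3 without floxed Foxa2 (p = 0.411, exact). Foxa3 differed by 2.32 between the same 5 and 3 lines (p = 0.0536, exact), with 9.75 to 29.1 CPM against 0.901 to 17.7 CPM. None of the 6 such tests passed after Benjamini-Hochberg adjustment, with adjusted p of 0.643, 0.821 and 0.321 for the 3 above. The ranges of the carrier and non-carrier lines overlapped for each gene. All 3 lines without floxed Foxa2 had title number 19659, which only 1526C shared among the 5 carriers. Floxed Foxa2 and title number thus largely went together and can hardly be told apart here.

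**Figure D1:**
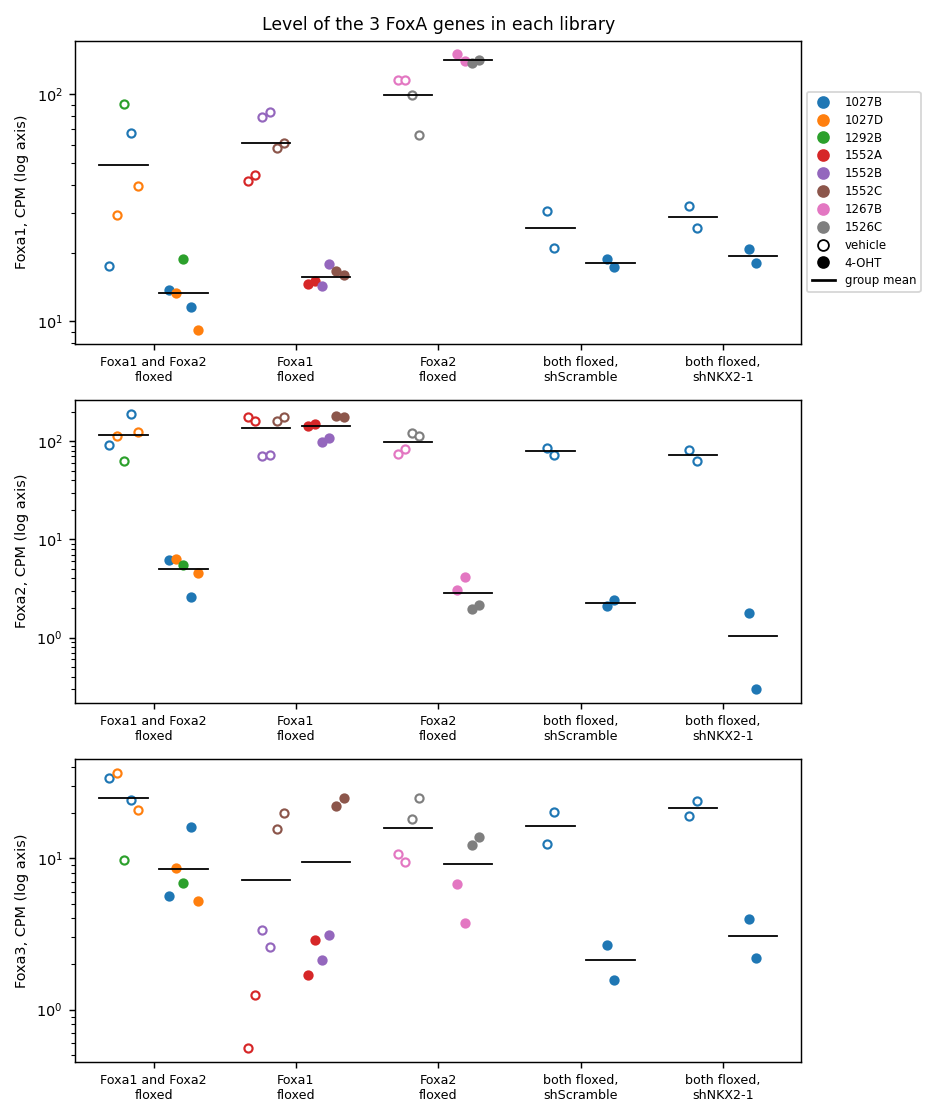
Level of Foxa1 (top), Foxa2 (middle) and Foxa3 (bottom) in CPM on log axes for each library, by floxed genes and hairpin; open points are vehicle, filled points 4-OHT, colours are organoid lines and bars are group means. Foxa2 after 4-OHT stayed at or below 6.26 CPM in all 13 libraries with floxed Foxa2, while Foxa1 in the 15 with floxed Foxa1 lay between 9.18 and 20.8 CPM.

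Foxa2 was nearly removed wherever it was floxed. In double-floxed organoids the vehicle libraries had 90.5 and 190.9 CPM in line 1027B, 111.6 and 125.0 in 1027D and 62.5 in 1292B. After 4-OHT the same lines had 6.13 and 2.61, 6.26 and 4.58, and 5.45 CPM. Every 4-OHT library lay below every vehicle library, with no overlap. The fitted log2 change was -4.48 (SE 0.376, 95% interval -5.34 to -3.63, adjusted p = 0.0018). Of the 13384 genes tested there, 3.97% were called.

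In Foxa2-floxed organoids Foxa2 went from 74.0 and 83.3 CPM to 3.08 and 4.13 CPM in line 1267B. Line 1526C went from 122.2 and 112.8 CPM to 1.97 and 2.17 CPM. The change was -5.11 (SE 0.251, adjusted p = 3.87e-09), in a comparison in which 3.41% of 16417 genes were called. The share of the vehicle level left per line was 3.11, 4.58 and 8.72% in the double-floxed lines 1027B, 1027D and 1292B, and 4.58 and 1.76% in the Foxa2-floxed lines 1267B and 1526C. These residual levels rest on 58 to 154 counts per library.

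Foxa1 fell too where it was floxed, but to a higher remainder. In double-floxed organoids the vehicle libraries had 17.5 and 67.6 CPM in 1027B, 29.5 and 39.6 in 1027D and 90.3 in 1292B. After 4-OHT they had 13.7 and 11.5, 13.4 and 9.18, and 18.8 CPM. The lowest vehicle library thus lay below the highest 4-OHT library of another line, while within each line the treatments did not overlap. The log2 change was -1.79 (SE 0.347, 95% interval -2.58 to -1.003, adjusted p = 0.0308), and leaving out line 1027D ended both this call (adjusted p = 0.285) and that of Foxa2 in the same organoids (adjusted p = 0.139). The call for Foxa1 was also lost in 11 of the fits that left out 1 library or 1 of the other lines, with adjusted p of 0.0506 to 0.0936 and changes of -1.92 to -1.45, and without the block of line (-1.87, adjusted p = 0.078). In all, 13 of 19 alternatives lost the call for Foxa1, which thus held in few leave-out fits.

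In Foxa1-floxed organoids Foxa1 went from 41.6 and 44.2 CPM to 14.6 and 15.1 CPM in line 1552A, from 79.4 and 83.2 to 14.3 and 17.9 CPM in 1552B, and from 57.7 and 61.0 to 16.6 and 15.9 CPM in 1552C. The 6 vehicle libraries all stood above the 6 4-OHT libraries. The log2 change was -1.92 (SE 0.129, 95% interval -2.19 to -1.65, adjusted p = 6.23e-07), and the fit on counts summed per line, with 3 lines, gave the same -1.92 with an adjusted p of 0.177. Foxa1 was 1 of 2 genes called by edgeR among 16417 in this comparison, which is 0.0122%, while 1882 genes had an unadjusted p under 0.05 and DESeq2 made 244 calls. The other was Tcp11l1, higher after 4-OHT at 6.16 ± 3.58 against 2.06 ± 0.766 CPM (adjusted p = 0.0304), named because the count is that small.

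The share of Foxa1 left per line was 29.7, 32.7 and 20.9% in 1027B, 1027D and 1292B, and 34.6, 19.8 and 27.4% in 1552A, 1552B and 1552C, a mean of 27.7 ± 6.14% (SD, n = 3 lines) and 27.3 ± 7.40% (n = 3). Foxa2 kept a mean of 5.47 ± 2.91% (n = 3) in the same double-floxed lines. In each of these lines the share left was larger for Foxa1, by 2.45 on the log2 scale on average. With 3 lines the exact sign-flip test cannot go below p = 0.25, which is the value it gave. The Foxa1 remainder rested on 256 to 515 counts per library without a hairpin.

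Foxa1 after 4-OHT varied little although its vehicle level varied much. Over the 11 vehicle libraries with floxed Foxa1 and no hairpin, the level ran from 17.5 to 90.3 CPM, a 5.17-fold range. After 4-OHT the 11 matching libraries ran from 9.18 to 18.8 CPM, a 2.05-fold range. The share left therefore moved with the vehicle level: line 1027B kept 78.6% of 17.5 CPM in the libraries with title number 17699 and 17.03% of 67.6 CPM in those with 17992. Line 1027D kept 45.4% and 23.2% in the same sets. Without the vehicle library of 1027B with 67.6 CPM the mean share left over the double-floxed lines was 41.9%.

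**Figure D2:**
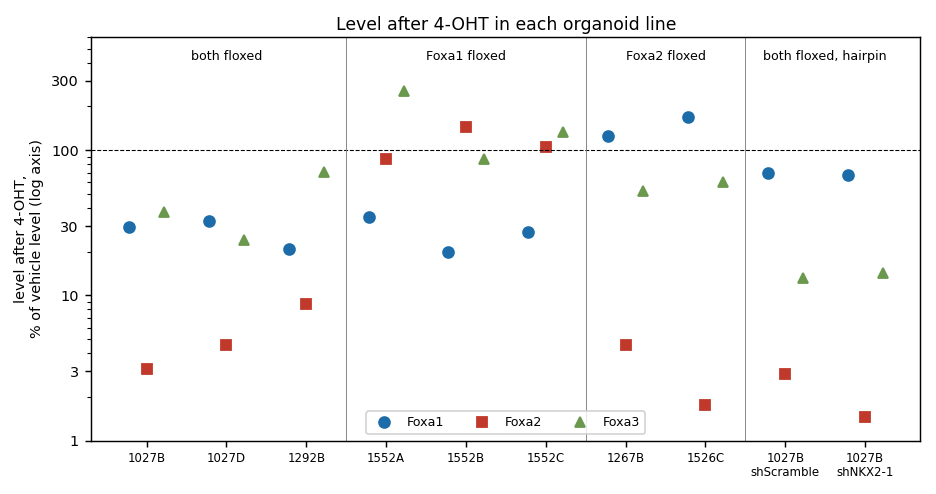
Level after 4-OHT as a percent of the vehicle level of the same line (log axis), for Foxa1 (circles), Foxa2 (squares) and Foxa3 (triangles) in each organoid line and in the hairpin cultures of 1027B; the dashed line marks 100%. Floxed Foxa2 lies at 8.72% or lower in every line, and floxed Foxa1 between 19.8 and 34.6% in the lines without hairpin.

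When Foxa2 alone was lost, every 4-OHT library held more Foxa1 than every vehicle library, but the change did not pass the adjusted threshold. Line 1267B had 115.6 and 115.7 CPM under vehicle and 149.5 and 139.5 CPM after 4-OHT. Line 1526C had 99.6 and 66.0 CPM and then 137.6 and 141.7 CPM. The groups did not overlap: the level went from 99.2 ± 23.4 to 142.1 ± 5.21 CPM (SD, n = 4). The log2 change was 0.54 (SE 0.151, 95% interval 0.22 to 0.86, adjusted p = 0.064 with edgeR, 0.0025 unadjusted). DESeq2 put the same change at 0.54 with an adjusted p of 0.0197, and the fit without a filter on low counts at an adjusted p of 0.0181. The other 15 of 17 alternatives did not call it. The change was 0.32 without line 1526C and 0.74 without line 1267B, so its size differed between the 2 tumours.

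The reverse change was not called: when Foxa1 alone was lost, Foxa2 differed in direction between the 3 lines. It went from 174.3 and 161.9 to 143.8 and 150.4 CPM in 1552A, where both 4-OHT libraries were below both vehicle libraries. In 1552B it went from 71.2 and 72.2 to 98.2 and 108.2 CPM, with both 4-OHT libraries above. In 1552C the libraries overlapped, at 159.5 and 177.8 against 181.0 and 175.9 CPM. The fitted log2 change was 0.13 (95% interval -0.22 to 0.48, adjusted p = 0.805), and it turned to -0.076 without line 1552B.

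Foxa3 is not floxed in any line, and its level differed more between tumours than that of its paralogs. In double-floxed organoids it went from 34.1 and 24.2 to 5.60 and 16.1 CPM in 1027B, from 36.7 and 20.7 to 8.61 and 5.23 CPM in 1027D, and from 9.75 to 6.89 CPM in 1292B. Each line was lower after 4-OHT, at 37.2, 24.1 and 70.7% of its vehicle level, although the groups overlapped across lines. The log2 change was -1.50 (SE 0.380, 95% interval -2.36 to -0.63, adjusted p = 0.0649 with edgeR, 0.0036 unadjusted). It was called with DESeq2 (-1.48, adjusted p = 0.003), without a filter on low counts (adjusted p = 2.70e-05) and with a block of line and title number (-1.56, adjusted p = 0.0393). The other 16 of 19 alternatives did not call it, with an adjusted p of up to 0.455.

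With Foxa2 alone floxed, Foxa3 went from 10.7 and 9.44 to 6.73 and 3.75 CPM in 1267B and from 18.1 and 24.9 to 12.3 and 13.8 CPM in 1526C. Both lines were lower, with no overlap within a line, and the log2 change was -0.83 (SE 0.292, 95% interval -1.45 to -0.22, adjusted p = 0.152). With Foxa1 alone floxed, Foxa3 went from 0.558 and 1.24 to 1.68 and 2.89 CPM in 1552A and from 15.5 and 19.96 to 22.2 and 25.0 CPM in 1552C. In 1552B the libraries overlapped, at 3.37 and 2.59 against 2.13 and 3.09 CPM. The log2 change was 0.48 (SE 0.25, 95% interval -0.05 to 1.00, adjusted p = 0.485), so edgeR called Foxa3 with neither gene floxed alone. Without a filter on low counts the change with Foxa2 floxed was called (-0.83, adjusted p = 0.0192). The other 16 of 17 alternatives did not call it.

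**Figure D3:**
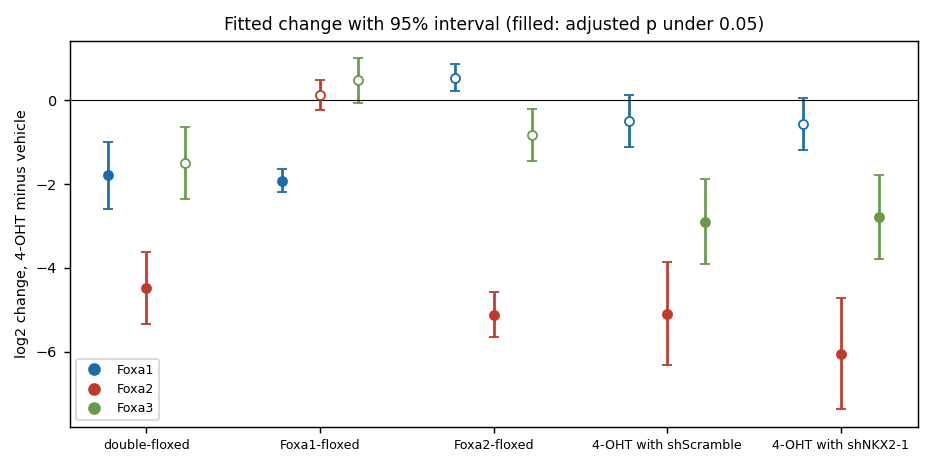
Fitted log2 change of Foxa1, Foxa2 and Foxa3 after 4-OHT against vehicle in the 5 comparisons, with 95% intervals; filled points passed an adjusted p under 0.05 over all genes tested. Foxa2 falls by 4.48 or more on the log2 scale in each comparison in which it is floxed, and Foxa3 is below 0 in those same comparisons.

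Whether the 4-OHT effect itself differed between genotypes was tested on counts summed per line and treatment, with 8 lines and 19085 genes. These 3 differences share lines. Double-floxed and Foxa1-floxed organoids also differ in title number, which cannot be told apart from genotype there. A gene floxed in a genotype and intact in the other differs by design, so its difference is a description. This holds for Foxa2 between double-floxed and Foxa1-floxed organoids, and for Foxa1 between double-floxed and Foxa2-floxed organoids. Between the single-floxed genotypes it holds for both Foxa1 and Foxa2. Between double-floxed and Foxa1-floxed organoids, Foxa2 differed by -4.58 (adjusted p = 0.0061) and Foxa1 by -0.072 (95% interval -0.64 to 0.50, adjusted p = 0.926), where 1.54% of genes were called. Foxa3 differed by -1.86 in the same comparison (95% interval -2.98 to -0.74, adjusted p = 0.11), and by -1.81 with DESeq2 (adjusted p = 0.0099). This difference stayed uncalled in 7 of 9 alternatives.

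Between double-floxed and Foxa2-floxed organoids, 0.194% of genes were called. Foxa1 was among them, with a difference of -2.52 (SE 0.281, adjusted p = 0.0346), and leaving out line 1027B, 1267B or 1526C gave -2.56, -2.77 and -2.29 with adjusted p of 0.0613, 0.0612 and 0.173. Foxa2 differed by 0.66 (95% interval -0.54 to 1.86, adjusted p = 0.777) and Foxa3 by -0.48 (95% interval -1.69 to 0.74, adjusted p = 0.844). Between the Foxa1-floxed and Foxa2-floxed organoids edgeR called 0.00% of genes, with 733 at an unadjusted p under 0.05, and DESeq2 called 19. The difference for Foxa3 there was 1.38 (95% interval 0.16 to 2.60, adjusted p = 1 with edgeR, 0.0315 unadjusted). Those for Foxa1 (-2.45) and Foxa2 (5.24) each had an adjusted p of 0.111, and DESeq2 called both.

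Summed per length of transcript, the family lost most of its level in double-floxed organoids. The sum of the 3 paralogs went from 76.0 ± 21.9 to 10.3 ± 2.00 CPM per kb (SD, n = 5) in double-floxed organoids. It went from 78.9 ± 8.38 to 48.4 ± 2.10 (n = 4) in Foxa2-floxed and from 79.4 ± 19.3 to 69.7 ± 19.02 (n = 6) in Foxa1-floxed organoids. The first of these falls left no overlap between the treatments, with a vehicle minimum of 58.3 and a 4-OHT maximum of 12.5. The sums of Foxa1-floxed organoids overlapped across lines, from 55.5 to 103.2 against 46.8 to 92.2. Within each of their 3 lines the 4-OHT libraries lay below the vehicle libraries, with line means of 84.3 and 67.7 in 1552A, 56.2 and 49.7 in 1552B, and 97.7 and 91.8 in 1552C. The libraries of 1552C nearly met, with a vehicle minimum of 92.26 and a 4-OHT maximum of 92.24.

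What was left differed in make-up. In double-floxed organoids after 4-OHT, Foxa1 made up 39.2 ± 8.23% of the summed level, Foxa3 39.3 ± 14.1% and Foxa2 21.5 ± 7.58%, where Foxa2 had been 62.9 ± 10.5% under vehicle. In Foxa2-floxed organoids Foxa1 went from 38.4 ± 11.4 to 88.3 ± 3.63% of the sum. In Foxa1-floxed organoids Foxa2 made up 70.3 ± 13.7% before and 87.2 ± 4.43% after. These shares are descriptions, because a share must rise when another member is lost.

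**Figure D4:**
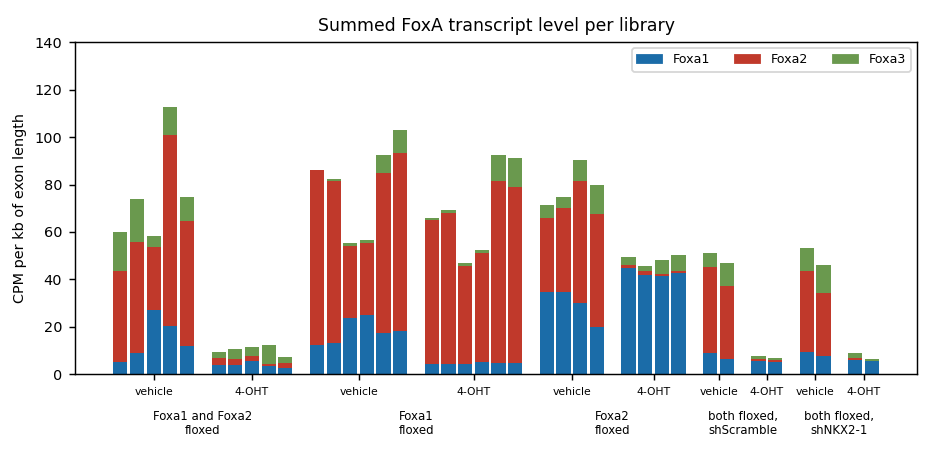
Summed FoxA level per library in CPM per kb of exon length, stacked by Foxa1, Foxa2 and Foxa3, 1 bar per library in the order of the replicates. The sum stays at or below 12.5 in the 5 double-floxed 4-OHT libraries and between 45.5 and 50.3 in the 4 Foxa2-floxed 4-OHT libraries, nearly all of it Foxa1.

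The hairpin experiment repeated the loss in line 1027B and added a hairpin against Nkx2-1, the lung lineage factor that works beside FoxA proteins. Nkx2-1 itself was 405.5 ± 0.571 CPM with shScramble and 296.6 ± 46.0 with shNKX2-1 under vehicle, and 358.8 ± 33.6 and 181.1 ± 13.2 CPM after 4-OHT (SD, n = 2). The hairpin libraries were lower in both, but the differences of -0.44 (adjusted p = 0.755) and -0.98 (adjusted p = 0.0763) did not pass. With shScramble, 4-OHT took Foxa2 from 85.0 and 72.9 to 2.12 and 2.42 CPM (-5.09, adjusted p = 0.0023), where 4.33% of 14465 genes were called. With shNKX2-1, Foxa2 went from 80.7 and 63.0 to 1.80 and 0.301 CPM (-6.04, adjusted p = 0.0017), where 6.35% were called.

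The 0.301 CPM stands on 4 counts in the library with 11.7% mitochondrial counts. That library also held 9.64 CPM of Irf2bp1, a neighbour of Foxa3 that had 30.4 to 39.5 CPM in the other 7 hairpin libraries; whether either had a part in the value was not tested. Without that library the change of Foxa2 with shNKX2-1 was -5.33 (adjusted p = 5.29e-04), and that of Foxa3 was -2.45 (adjusted p = 0.0192). The shares of Foxa2 left were 2.88% with shScramble and 1.46% with shNKX2-1.

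Foxa3 fell with either hairpin. It went from 12.4 and 20.1 to 2.69 and 1.58 CPM with shScramble (-2.90, 95% interval -3.91 to -1.89, adjusted p = 0.0097) and from 19.1 and 23.9 to 3.98 and 2.18 CPM with shNKX2-1 (-2.78, 95% interval -3.78 to -1.79, adjusted p = 0.0097). The groups did not overlap, and 13.1 and 14.4% of the vehicle level were left. With 1 library left out the shScramble call was lost in 3 of 4 fits (shScramble 4-OHT replicate 1, adjusted p = 0.0551; vehicle replicate 2, 0.0775; 4-OHT replicate 2, 0.125), and the shNKX2-1 call without vehicle replicate 2 (adjusted p = 0.0622). In the same line without a hairpin Foxa3 kept 16.4% in the libraries with title number 17699 and 66.5% in those with 17992.

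Foxa1 was not called in this experiment although line 1027B carries floxed Foxa1. It went from 30.7 and 21.0 to 18.8 and 17.4 CPM with shScramble (-0.49, 95% interval -1.11 to 0.13, adjusted p = 0.469) and from 32.1 and 25.8 to 20.8 and 18.2 CPM with shNKX2-1 (-0.56, 95% interval -1.18 to 0.06, adjusted p = 0.236). Within each hairpin both 4-OHT libraries were below both vehicle libraries. The remainder was 70.0 and 67.3% of vehicle, beside 2.88 and 1.46% for Foxa2 in the same cultures. Its level after 4-OHT, 17.4 to 20.8 CPM, lay at and above the top of the range without hairpin, 9.18 to 18.8 CPM. Line 1027B without hairpin had 13.7 and 11.5 CPM. Its vehicle level with hairpins, 21.0 to 32.1 CPM, was at the low end of the 17.5 to 90.3 CPM without hairpin.

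The Nkx2-1 hairpin gave no called change of a FoxA gene. Between hairpins, the differences under vehicle were 0.18 for Foxa1 (95% interval -0.44 to 0.79), -0.12 for Foxa2 (-1.12 to 0.88) and 0.42 for Foxa3 (-0.49 to 1.33), each with an adjusted p of 1, where 0.235% of genes were called. After 4-OHT they were 0.11 (-0.51 to 0.73), -1.07 (-2.36 to 0.22) and 0.53 (-0.47 to 1.54), with adjusted p of 0.856, 0.428 and 0.577, where 1.58% were called. In the interaction of hairpin and 4-OHT edgeR called 0.00% of genes, where 782 had an unadjusted p under 0.05 and DESeq2 made 84 calls. Foxa1, Foxa2 and Foxa3 had interaction terms of -0.068, -0.95 and 0.11. Without shNKX2-1 4-OHT replicate 1, which leaves the library with 4 Foxa2 counts alone in its group, Foxa2 was called between hairpins after 4-OHT (-2.87, adjusted p = 0.0038) and in the interaction (-2.74, adjusted p = 0.0116).

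Of 41 other forkhead genes, 16 were tested in double-floxed organoids. Of these 2 were lower and 1 higher, where 3.97% of all genes were called, and their median log2 change was -0.23 beside 0.01 over all genes. Foxp1, a forkhead factor of lung development, fell from 92.2 ± 14.7 to 43.2 ± 11.4 CPM (SD, n = 5, adjusted p = 0.0144). Foxp2, its relative in lung epithelium, fell from 15.9 ± 12.4 to 0.248 ± 0.329 CPM (adjusted p = 0.0178), and Foxo6 rose from 0.283 ± 0.335 to 4.73 ± 3.72 CPM (adjusted p = 0.0381, lost in 13 of 19 alternatives, up to 0.304 without line 1027D). The calls of Foxp1 and Foxp2 were lost in 4 of 19 and 3 of 18 alternatives.

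In Foxa2-floxed organoids, where 3.41% of all genes were called, 21 were tested, with Foxp2 (26.5 ± 30.6 to 6.21 ± 6.89 CPM, n = 4, adjusted p = 0.0054) and Foxp1 (77.9 ± 5.48 to 50.2 ± 7.58 CPM, adjusted p = 0.0096) lower and Foxn1 higher (2.15 ± 2.17 to 4.80 ± 3.02 CPM, adjusted p = 0.015). The calls of Foxp2, Foxp1 and Foxn1 were lost in 2, 5 and 6 of 17 alternatives. In Foxa1-floxed organoids 0 of 21 were called by edgeR or DESeq2, with 3 at an unadjusted p under 0.05. In the hairpin cultures 15 were tested. With shScramble 1 was lower (4.33% of all genes called), and with shNKX2-1 2 were lower (6.35%). Foxp2 fell with shScramble (14.6 ± 1.04 to 0.532 ± 0.105 CPM, adjusted p = 0.0018) and with shNKX2-1 (24.6 ± 0.183 to 0.734 ± 0.505 CPM, adjusted p = 0.0013). Foxp1 fell with shNKX2-1, from 52.8 ± 0.236 to 27.1 ± 2.97 CPM (adjusted p = 0.0356), a call lost in 2 of 7 alternatives.

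Of 26 transcription factors of endoderm and lung, 17 were tested in double-floxed organoids and 1 was lower, a share near the 3.97% of all genes. This was Cebpa, a factor of alveolar and liver cells, at 151.1 ± 43.9 and then 51.9 ± 17.3 CPM (adjusted p = 0.0069). In Foxa2-floxed organoids 1 of 23 was lower, also near the 3.41% of all genes: Etv5, a factor of alveolar type 2 cells (114.5 ± 24.6 to 71.9 ± 13.5 CPM, adjusted p = 0.0477, lost in 11 of 17 alternatives). In Foxa1-floxed organoids 0 of 23 were called by edgeR, also at an unadjusted p under 0.05, and 0 by DESeq2. In the hairpin cultures 18 were tested. With shScramble 2 were lower (4.33% of all genes called), and with shNKX2-1 4 were lower (6.35%). Hnf4a, a nuclear receptor of liver and gut, fell with shScramble from 129.5 ± 39.8 to 8.95 ± 0.923 CPM (adjusted p = 0.0017). With shNKX2-1 the genes that fell included Hnf4a (173.8 ± 27.9 to 5.63 ± 2.21 CPM), Spdef (8.30 ± 7.74 to 0.0641 ± 0.0907 CPM, adjusted p = 0.0224) and Gata4 (29.9 ± 2.46 to 5.99 ± 4.96 CPM, adjusted p = 0.0447). The calls of Spdef and Gata4 were each lost in 2 of 7 alternatives.

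Of 24 genes known as FoxA targets in lung, liver, gut or floor plate, 12 were tested in double-floxed organoids and 4 were lower, where 3.97% of all genes were called, with a median log2 change of -2.12 beside 0.01 over all genes. They were Trf, which encodes transferrin (1825 ± 1911 to 0.357 ± 0.460 CPM, adjusted p = 0.0013), Tff1, a gastric trefoil peptide (548.7 ± 702.6 to 0.886 ± 0.989 CPM, adjusted p = 0.0139), and the surfactant genes Sftpa1 (171.2 ± 272.4 to 0.455 ± 0.699 CPM, adjusted p = 0.0183) and Sftpb (8063 ± 5305 to 2361 ± 1571 CPM, adjusted p = 0.0407, lost in 12 of 19 alternatives). The vehicle levels of all but Sftpb had an SD above their mean, so they differed greatly between libraries. The count went from 4 to 0 without line 1027D. This list, like those of forkhead genes and transcription factors above, was chosen with earlier results of these data known. Its counts and medians, here and below, are therefore descriptions.

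In Foxa2-floxed organoids 6 of 18 targets were lower and 1 higher, beside 3.41% of all genes called, with a median of -0.96. Among the lower were Shh, the hedgehog ligand (8.72 ± 6.55 to 1.53 ± 0.694 CPM, adjusted p = 2.01e-04), Tff1 (640.4 ± 662.7 to 109.6 ± 114.8 CPM, adjusted p = 4.76e-04) and Trf (1186 ± 1002 to 118.4 ± 139.2 CPM, adjusted p = 0.0017). Alb, the albumin gene, had 40.8 ± 53.4 and 0.614 ± 0.941 CPM (adjusted p = 3.20e-04), but its change rested on line 1526C and was 2.40 without it. In Foxa1-floxed organoids 0 of 18 were called by edgeR, with 3 at an unadjusted p under 0.05 and a median of -0.28, and DESeq2 called 2 lower. In the hairpin cultures 8 of 15 were lower with shScramble (4.33% of all genes called) and 9 of 15 with shNKX2-1 (6.35%), also 9 without the library with the high mitochondrial share, and 5 with shScramble without vehicle replicate 1. In the fit of effect differences, 6 of 18 targets had a called difference below 0 between double-floxed and Foxa1-floxed organoids, where 1.54% of all genes were called, with a median of -3.05 beside -0.01 over all genes, and 3 of 18 without line 1552C.

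An annotated neighbour of Foxa2 was called higher after 4-OHT in both genotypes with floxed Foxa2, and was not called in the hairpin cultures. 9030622O22Rik is a long intergenic noncoding RNA at chr2:147944740-148040203 that starts 2674 bases beyond the 3′ end of Foxa2 on the same strand. In double-floxed organoids it had 22.3 to 49.5 CPM under vehicle and 60.3 to 153.7 CPM after 4-OHT, with no overlap (log2 change 1.54, SE 0.324, adjusted p = 0.0403). In Foxa2-floxed organoids it had 36.2 ± 23.9 and 70.7 ± 19.4 CPM (1.06, SE 0.231, adjusted p = 0.0175), with no overlap within line 1526C or 1267B but overlap across them. The call was lost in 13 of 19 alternatives in double-floxed organoids, up to an adjusted p of 0.329 without line 1027D. In Foxa2-floxed organoids it was lost in 8 of 17, up to 0.816 without line 1526C, and its change stayed above 0 in each.

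In Foxa1-floxed organoids the RNA had 15 ± 2.83 and 13.5 ± 2.28 CPM (-0.15, 95% interval -0.55 to 0.25, adjusted p = 0.808). The difference of its effect between double-floxed and Foxa1-floxed organoids was 1.59 (SE 0.264, adjusted p = 0.0292), and it ran from 1.45 to 1.87 with 1 line left out, with 5 of 6 such fits not called (adjusted p up to 0.105). In the hairpin cultures of 1027B it began higher, at 82.1 and 93.3 CPM with shScramble and 63.6 and 81.6 CPM with shNKX2-1 under vehicle. After 4-OHT these had 110.5 and 119.4 CPM (adjusted p = 0.559) and 76.7 and 47.1 CPM (adjusted p = 0.615), so no change was called there, although with shScramble both 4-OHT libraries lay above both vehicle libraries. Reads that run on past the end of Foxa2 or of an excised allele cannot be told apart from transcripts of the neighbour in gene counts.

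No other neighbour with a fitted change was called after 4-OHT in any genotype or hairpin group. Around Foxa1 these were Gm2568, a processed pseudogene, Mipol1 and Ttc6, and around Foxa3 they were Irf2bp1, Mypop and Sympk. In double-floxed organoids their log2 changes ran from -0.60 for Mipol1 (adjusted p = 0.342) to 1.34 for Gm2568 (adjusted p = 0.25). Sympk, which starts 839 bases from Foxa3 on the opposite strand, changed by -0.28 there (95% interval -0.64 to 0.08, adjusted p = 0.371), beside -1.50 for Foxa3.

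**Figure D5:**
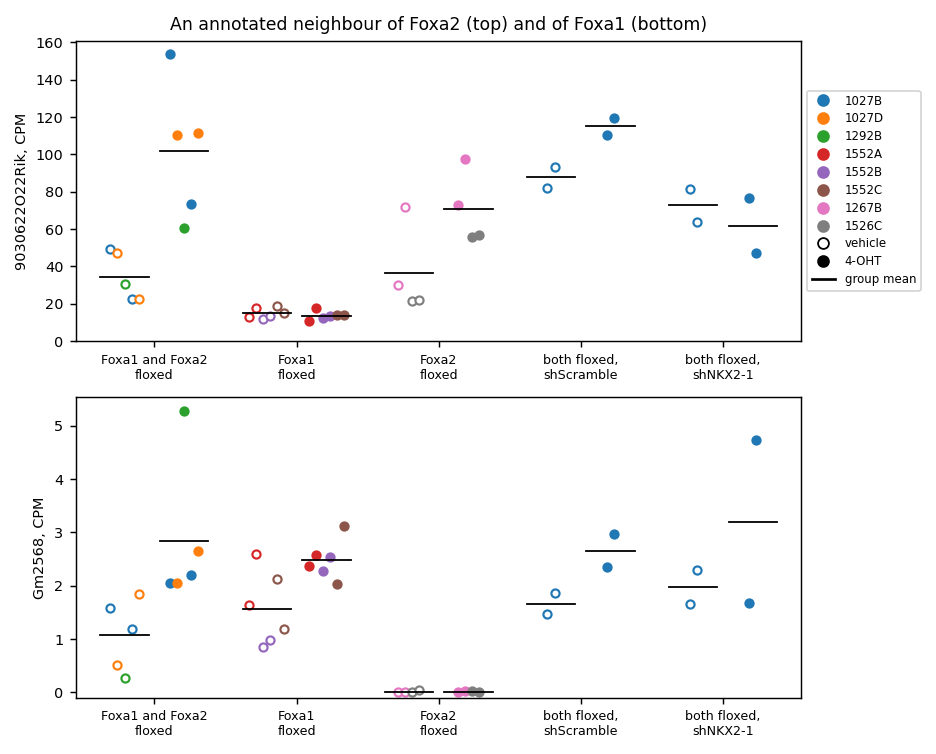
CPM per library of 9030622O22Rik, the neighbour of Foxa2 (top), and Gm2568, a neighbour of Foxa1 (bottom), by floxed genes and hairpin; open points are vehicle, filled points 4-OHT, colours are lines and bars group means. 9030622O22Rik lies at 60.3 CPM or more in the double-floxed 4-OHT libraries against 49.5 or less under vehicle, and Gm2568 lies at or below 0.036 CPM in the 8 Foxa2-floxed libraries.

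Over the 16 means of line and treatment without hairpins, the paralogs were compared with each other and with all genes. Pearson's r of log2 CPM was -0.043 for Foxa1 with Foxa2, 0.12 for Foxa1 with Foxa3 and 0.042 for Foxa2 with Foxa3, given as descriptions since the points share lines and libraries and the excised genes set part of each r. Of 10736 genes, those most like Foxa1 were Mettl7b (r = 0.77), Guk1 (0.75), Nostrin (0.75) and Ugt2b34 (0.75). Those most like Foxa2 were Hyou1 (0.91), Wtip (0.90), Cmtm8 (0.89) and Asph (0.89), and those most like Foxa3 were Akr1c13 (0.90), Egfl7 (0.88) and Gata4 (0.88). Gata4 ran from 0 to 36.4 CPM over the libraries without hairpins.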

How the data were processed

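RNA was sequenced in bulk from 38 organoid libraries. The authors deposited raw read counts per Ensembl gene, with no normalisation. Per the submitters' processing notes, tools were featureCounts 1.5.1, STAR 2.7.6a and DESeq2, and the build was GRCm38, with no role stated. For strand, annotation release and reads with several matches the settings were not given in the sources used here.

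Groups came from the labels. Changes were fitted over all genes with edgeR 4.0.16 under R 4.3.3, using filterByExpr, TMM and the quasi-likelihood F test, and called at a Benjamini-Hochberg adjusted p under 0.05. Each SE is the log2 change divided by the root of F. Line was a block, since the vehicle and 4-OHT libraries of a line share a tumour, and the single-floxed genotypes were fitted together. As a check of that pairing, the vehicle and 4-OHT means of a line, centred over lines, correlated with r from 0.70 to 0.91 over genes; centring over 2 or 3 lines sets part of this. The hairpin fit had 4 group means. DESeq2 1.42.0 was an alternative. Each fit was tested on simulated data. Lengths are exon unions from GENCODE vM21, and the likeness added 0.5 CPM before log2.

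The genes and lists were chosen with earlier results of these data known. Named were the 3 FoxA genes, Nkx2-1 with the hairpins, the called genes of lowest adjusted p in each list (4 at most), the 2 nearest genes on each side and the 4 most alike genes of mean log2 CPM of 2 or more. For 5 neighbours with at most 110 counts in all libraries no value is given. Some items that meet these rules are not reported here.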

Additional observations from a re-analysis of the deposited data

Results flagged for a closer look

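A test of the difference between genotypes set apart 3 values. The 4-OHT effect on Foxa2 differed by -4.58 on the log2 scale between double-floxed and Foxa1-floxed organoids, where Foxa2 is floxed in the first and intact in the second. The effect on Foxa1 differed by -2.52 between double-floxed and Foxa2-floxed organoids, where Foxa1 is floxed in the first and intact in the second. Both differences are set by the design and are given as descriptions. The effect on 9030622O22Rik, the noncoding RNA beyond the 3′ end of Foxa2, differed by 1.59 between double-floxed and Foxa1-floxed organoids. No FoxA level stood apart from its group in 18 tests of the highest and lowest library, although about 1 in 20 such tests does so by chance. The hairpin groups are too small for such a test, so the 0.301 CPM of Foxa2 with shNKX2-1 after 4-OHT was not covered.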

How the results depend on the processing

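Across all alternatives for the values named, 797 kept their direction and their side of the threshold, 137 lost the call, 17 gained one, 15 reversed and 1 moved. Foxa2 in Foxa2-floxed organoids and with either hairpin kept its call in every alternative run. Without the replicate block of line, Foxa1 in double-floxed organoids changed by -1.87, no longer called; a block of line and title number gave Foxa3 there -1.56, called; neither block changed another call of a FoxA gene. DESeq2 called Foxa3 in double-floxed organoids (-1.48), Foxa1 in Foxa2-floxed organoids (0.54) and the effect differences of Foxa3 between double-floxed and Foxa1-floxed organoids (-1.81) and of Foxa1 (-2.46) and Foxa2 (5.24) between the single-floxed genotypes. Fits without a filter on low counts called the same (-1.50, 0.54, -1.83, -2.45 and 5.24) and Foxa3 in Foxa2-floxed organoids (-0.83). Counts summed per line ended the call of Foxa1 in Foxa1-floxed organoids (-1.92), where fewer sums replace libraries. The cause of the other changes was not tested.

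Leaving out 1 library or line gave ranges of -2.02 to -1.45 (Foxa1), -4.72 to -4.15 (Foxa2) and -1.79 to -1.11 (Foxa3) in double-floxed, and -0.076 to 0.30 (Foxa2) in Foxa1-floxed organoids. With hairpins Foxa3 ran from -3.34 to -2.54 (shScramble) and -3.29 to -2.45 (shNKX2-1). Between hairpins under vehicle Foxa1 ran from -0.10 to 0.47 and Foxa2 from -0.32 to 0.049; after 4-OHT Foxa2 ran from -2.87 to -0.35. The interaction ran from -0.38 to 0.19 (Foxa1), -2.74 to -0.21 (Foxa2) and -0.37 to 0.54 (Foxa3). Effect differences ran from -0.24 to 0.12 (Foxa1, double-floxed minus Foxa1-floxed), -2.77 to -2.29 (Foxa1, minus Foxa2-floxed) and -0.028 to 1.37 (Foxa2, minus Foxa2-floxed). 9030622O22Rik with shNKX2-1 ran from -0.62 to 0.063, and Alb in Foxa2-floxed organoids from -7.35 to 2.40, the last without line 1526C. The share of Foxa1 left in double-floxed lines ran from 24.1 to 41.9%.

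The list counts rest on the settings: over all alternatives, FoxA targets called lower numbered 0 to 13 (double-floxed), 0 to 10 (Foxa2-floxed) and 0 to 8 (Foxa1-floxed). The fits of effect differences have 2 or 3 lines on a side.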

Other observations

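Gm2568, a processed pseudogene 20004 bases beyond the 3′ end of Foxa1 on the same strand (chr12:57519043-57520624), differed between the libraries of lines with and without floxed Foxa1. It had 5 to 99 counts, or 0.274 to 5.27 CPM, in each of the 30 libraries from lines with floxed Foxa1, and 1418 counts in all. In the 8 libraries from lines with floxed Foxa2 alone it had 0 or 1 count each, at most 0.036 CPM, and 3 counts in all. The pattern was noticed in these values, so no test is given. It was present under vehicle in double-floxed (1.08 ± 0.678 CPM, n = 5) and Foxa1-floxed organoids (1.56 ± 0.689 CPM, n = 6), and stood at 2.84 ± 1.38 and 2.49 ± 0.367 CPM after 4-OHT. In double-floxed organoids every 4-OHT library (2.04 to 5.27 CPM) lay above every vehicle library (0.274 to 1.85 CPM), while in Foxa1-floxed organoids the treatments overlapped.

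9030622O22Rik showed a like separation under vehicle: the line means were 21.6 to 50.8 CPM in the 5 lines with floxed Foxa2 and 12.6 to 16.99 CPM in the 3 lines without it. The floxed alleles and the lines that carry them cannot be told apart in either pattern. For 9030622O22Rik the title number also largely went with the allele, since the 3 lines without floxed Foxa2 all had 19659.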
